A study of Mus musculus with 6 samples.

Results

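The 44 genes described here encode the integrated stress response and the unfolded protein response: targets of the transcription factor ATF4, genes of serine and other amino acid supply, transfer RNA (tRNA) ligases, and chaperones of the endoplasmic reticulum (ER). They were chosen by symbol, matched through Ensembl identifiers, and all 44 were found among the 22933 genes of the deposited table. Of these, 43 had a mean value of at least 10 and were tested. The RNA is from a mouse embryonic stem cell line with floxed Ezh2 (Ezh2 fl/fl), grown on gelatin with leukaemia inhibitory factor. The untreated group (n = 3 libraries) had received no tamoxifen and is labelled Ezh2 wild type. The tamoxifen group (n = 3 libraries) had received 800 nM 4-hydroxytamoxifen for 96 h to delete Ezh2, the catalytic subunit of Polycomb repressive complex 2, and is labelled Ezh2 KO. RNA was taken 4 days after treatment. The Cre driver, and whether the line is 1 clone, are not given in the labels. All 6 libraries share the floxed line, so effects of the drug and of the deletion cannot be told apart. Whether replicates were separate cultures is not stated, so the p-values may measure technical spread only.

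In the integrated stress response, shortage of amino acids, ER stress or other insults leads to phosphorylation of the initiation factor eIF2. General translation then slows while the mRNA of ATF4 is translated more, and ATF4 with C/EBP partners switches on genes that make, import and charge amino acids. The unfolded protein response adds the sensors ATF6 and IRE1, the latter acting through XBP1, which raise ER chaperones and degradation factors. Embryonic stem cells draw heavily on serine and glycine metabolism, and mRNA of ATF4 does not measure how much ATF4 protein is made.

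Members tied to ATF4 mostly had lower values in the tamoxifen libraries, and ER genes lay on both sides of 0. The difference between these groups of genes was not tested. Log2 fold changes below are tamoxifen minus untreated on log2(deposited value + 1), fitted with limma across 17427 genes. Outside the ER group, 29 of 33 tested members lay below 0, with a median of -0.47. That median was -0.44 with at least 10 reads on average, which leaves Fgf21 out. The 10 ER genes had 6 below 0 and 4 above, with a median of 0.00, and the median of all genes tested was also 0.00. Mean values of Trib3, Chac1, Psat1 and Sars in the tamoxifen libraries were 60.4%, 52.7%, 56.5% and 55.2% of the untreated means. In bulk RNA, fewer cells of a type and less RNA per cell cannot be told apart. Only Fgf21, on very few reads, was called at a limma adjusted p under 0.05.

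In all, 14 of 43 members were lower at an unadjusted limma p under 0.05 and 0 were higher, against 3.99% of all tested genes lower and 5.34% higher by that rule. For 18 members, every tamoxifen value lay below every untreated value, and for 0 members the groups were separated the other way. Such separation held for 7.33% of all genes tested downwards and 7.92% upwards. Aars is 1 of the 18 members, and of the 17 below, only by a near tie. Called at an adjusted p under 0.05 and lower was 1 member, against 0.0689% of all genes lower and 0.126% higher. Fgf21 passed the filter only through its untreated values and had to differ. Among the 42 members with at least 10 reads on average, 13 were lower at an unadjusted p under 0.05 (all such genes 4.75%, and 6.43% higher) and 17 had separate groups (all such genes 8.89%, and 9.49% upwards). Both counts are descriptions of a list chosen with earlier results known.

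**Figure D1:**
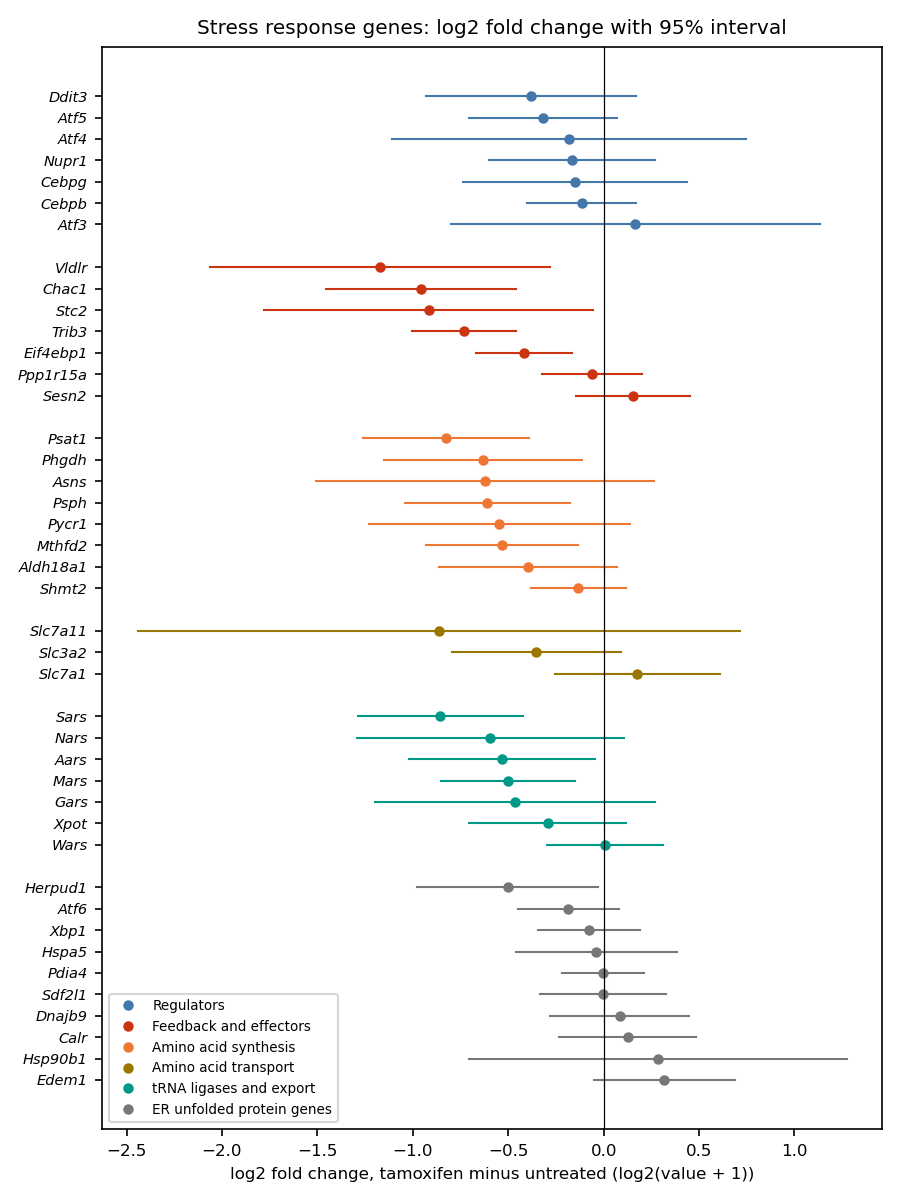
Log2 fold change (x axis, log2(value + 1), tamoxifen minus untreated) of 42 stress response genes by role, with limma's 95% interval as a line. Fgf21 is left out because all its tamoxifen values are 0. Members of the feedback, synthesis and tRNA groups lie mostly left of 0, and the ER group, with a median of 0.00, is spread around it.

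A read count was recovered behind each deposited value (see the processing account), which allowed the same comparison without the authors' normalization. Scaled by the median of ratios between libraries, 22 of 43 members were lower at an unadjusted limma p under 0.05 and 0 higher, against 3.12% of all genes lower and 4.83% higher. Groups were separated downwards for 24 members and upwards for 0 (all genes 6.5% and 6.8%). The members' median was -0.59, and that of all genes 0.00. Scaled to the library total instead, the same reads gave 2 members lower by that rule and 0 higher. In that fit 1206 of all 17427 genes had an unadjusted limma p under 0.05 in either direction. The 2 of 43 members are not above that share. There the median of all genes was 0.25 and that of the members -0.32, or -0.57 relative to all genes. No member was called after adjustment on reads (limma, smallest adjusted p 0.210, for Chac1 and Mthfd2). Under that fit 5 genes of the whole table, all higher, were called (0.0287%) and 1384 had an unadjusted p under 0.05.

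**Figure D2:**
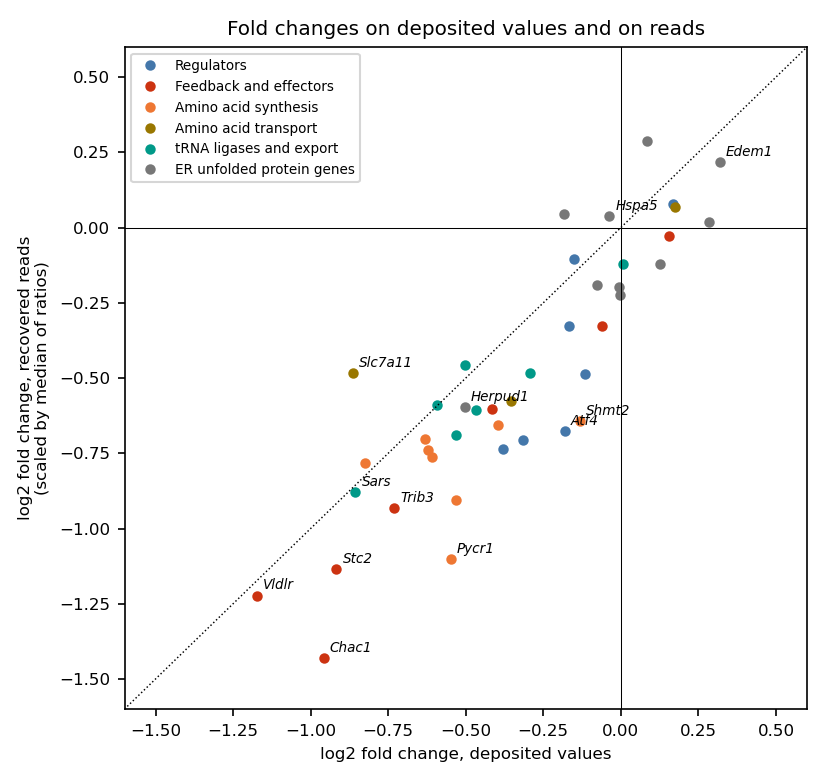
Log2 fold change of 42 members on deposited values (x axis) and on recovered reads scaled by the median of ratios (y axis); the dotted line marks equality. Most members lie below the line: the median was -0.35 on deposited values of all 43 tested members and -0.59 on reads.

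Some upstream sequences of these genes hold the binding elements for which the family is known, and a few are given here so that the members can be read against them. RefSeq promoters (GRCm38.p6, 250 bases before to 50 after an annotated start) were found for 38 of the 44 genes, as 42 promoters. The C/EBP-ATF response element was searched as TGATGNAA on both strands. It was present in 12 member promoters (28.6%), against 3.97% of 32851 promoters. The ER stress response element, CCAAT and CCACG with 9 bases between them on either strand, was present in 3 member promoters (7.14%, against 0.119%), those of Hspa5, Hsp90b1 and Calr. The members were chosen as ATF4 targets and ER chaperones, so these shares describe the choice of list. A match is a description of letters and does not show binding. Stretches before the start that touch no annotated exon are shown for 4 genes with the first element and 2 with the second. Atf3, Slc7a11 and Gars also had such stretches with the first element and are not shown. Sequences are in gene orientation, with the match in capitals.
Chac1, chr2:119351008-119351097, plus strand: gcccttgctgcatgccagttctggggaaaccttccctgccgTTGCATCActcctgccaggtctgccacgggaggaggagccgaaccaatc
Fgf21, chr7:45615581-45615670, minus strand: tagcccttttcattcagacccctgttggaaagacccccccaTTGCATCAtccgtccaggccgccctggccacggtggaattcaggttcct
Pycr1, chr11:120643803-120643892, minus strand: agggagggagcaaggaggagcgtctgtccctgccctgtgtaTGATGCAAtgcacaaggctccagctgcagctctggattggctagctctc
Herpud1, chr8:94386276-94386365, plus strand: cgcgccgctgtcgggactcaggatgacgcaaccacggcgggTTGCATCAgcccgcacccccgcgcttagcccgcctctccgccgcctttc
Calr, chr8:84847039-84847128, minus strand: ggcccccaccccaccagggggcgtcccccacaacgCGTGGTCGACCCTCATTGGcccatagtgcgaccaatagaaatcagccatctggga
Hsp90b1, chr10:86705523-86705666, minus strand: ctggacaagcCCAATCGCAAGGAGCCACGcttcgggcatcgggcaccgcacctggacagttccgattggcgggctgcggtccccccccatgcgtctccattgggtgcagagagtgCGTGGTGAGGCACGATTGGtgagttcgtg

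The first base of the TGATGNAA match lay 193 bases before the start in Chac1, 139 in Fgf21, 103 in Pycr1 and 112 in Herpud1. In Trib3 the match (TTACATCA) lay after the start. Of the 12 tested members with the element, 11 were below 0, with a median log2 fold change of -0.59, and 6 had an unadjusted limma p under 0.05 and were lower. Of the 26 tested members whose promoters lacked it, 20 were below 0, with a median of -0.14, and 6 were lower by the same rule. By that rule 3.99% of all tested genes were lower. The sets differ in role: of 9 ER genes with a promoter, 1 had the element. Fgf21, which had to differ, is among the 12. The difference between the sets was not tested. Psat1, Phgdh and Sars are among those without a match in this window, which says only that the letters are not there.

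Of the 6 roles, feedback and effector genes had the lowest median. Its 8 members stood at a median log2 fold change of -0.82, and 7 were below 0. These include Fgf21, which had to differ. With at least 10 reads on average, which leaves Fgf21 out, the median was -0.73. Trib3 (ENSMUSG00000032715, chromosome 2, 152337422 to 152344032 on GRCm38) encodes a pseudokinase that restrains ATF4. Its values were 4028, 4048 and 3656 in untreated replicates 1 to 3 and 2626, 2178 and 2277 in tamoxifen replicates 1 to 3. All 3 tamoxifen values lay far below the lowest untreated one. The means were 3911 ± 221 and 2360 ± 235 (SD, n = 3 each), which gave -0.73 ± 0.11 (SE) on the log2 scale (limma adjusted p 0.105). On reads it was -0.93. With 1 library left out it ranged from -0.81 to -0.68.

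Chac1 (ENSMUSG00000027313, chromosome 2, 119351229 to 119354381), whose promoter is shown above, encodes an enzyme that degrades glutathione. It stood at 2587, 2617 and 2818 without tamoxifen and at 1710, 1008 and 1507 with it. The groups did not overlap, and tamoxifen replicate 2 was lowest. The means of 2674 ± 126 and 1408 ± 362 (SD, n = 3) differed by -0.96 ± 0.21 (SE) on the log2 scale (limma adjusted p 0.245). On reads the difference was larger, -1.43, from 103, 181 and 57 reads against 49, 19 and 78.

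Eif4ebp1 encodes 4E-BP1, a repressor of cap-dependent translation. Its values were 4924, 4253 and 5040 against 3425, 3619 and 3581, and the 3 tamoxifen libraries were close together below all untreated ones. On the log2 scale the difference was -0.42 (95% interval -0.67 to -0.16, limma adjusted p 0.310).

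Vldlr encodes a lipoprotein receptor. It stood at 234, 176 and 175 untreated and at 107, 58.5 and 97.9 after tamoxifen, on 7 to 51 reads. The groups did not overlap and the log2 difference was -1.17 (95% interval -2.06 to -0.28, limma adjusted p 0.437). Stc2, the gene of the secreted glycoprotein stanniocalcin 2, had values of 797, 584 and 572 against 476, 202 and 409. Its log2 fold change of -0.92 rested in part on tamoxifen replicate 2, without which it was -0.54.

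Fgf21, the gene of a stress-induced hormone, was listed at 979, 893 and 443 in the untreated libraries and at 0 in all 3 tamoxifen libraries. These values stand on 4, 4 and 1 reads against 0. Against a floor of 3 counts over the tamoxifen group, expression was at least 2.77-fold lower, counting error of the group at 0 only. The limma adjusted p was 0.00844 on deposited values and 0.215 on reads, and it was 0.0671 without untreated replicate 1 and 0.0582 without untreated replicate 2.

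The other 2 members of this group overlapped between groups. Ppp1r15a (GADD34), which directs the phosphatase that ends eIF2 phosphorylation, had a log2 fold change of -0.06 with a 95% interval from -0.32 to 0.20, and on reads it stood at -0.33 with separate groups. Sesn2, which senses leucine and is also a known p53 target, stood at 0.15 with an interval from -0.15 to 0.45.

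**Figure D3:**
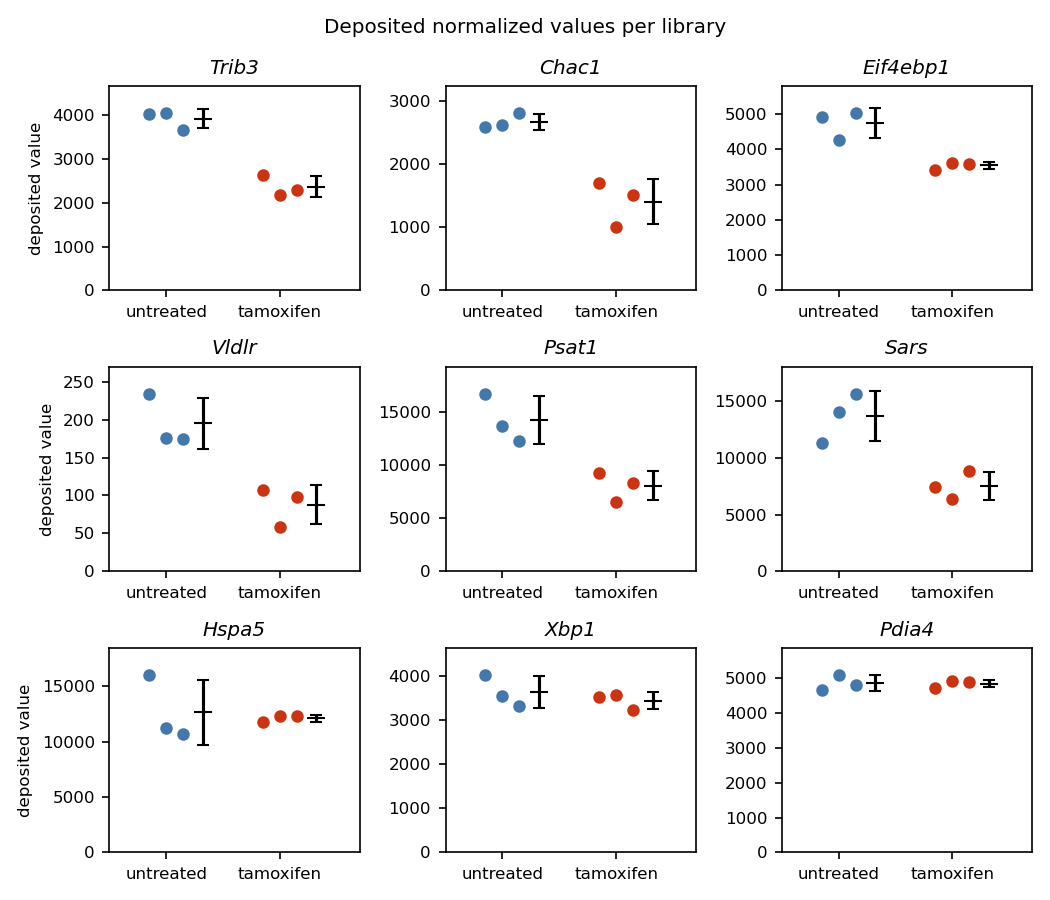
Deposited normalized values (y axis, from 0) of 9 members in each of 3 untreated (blue) and 3 tamoxifen libraries (red), with the mean and SD in black. For Trib3, Chac1, Eif4ebp1, Vldlr, Psat1 and Sars all tamoxifen points lie below all untreated points, and for Hspa5, Xbp1 and Pdia4 the groups overlap.

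Among amino acid synthesis genes, all 8 lay below 0, with a median log2 fold change of -0.58. Groups were separate downwards for 5 (all genes 7.33%). On reads all 8 had separate groups (all genes 6.5% downwards), with a median of -0.75. The median on deposited values was -0.33 without tamoxifen replicate 2 and -0.76 without tamoxifen replicate 1. Psat1 (ENSMUSG00000024640, chromosome 19, 15904678 to 15947337), the aminotransferase of serine synthesis, had values of 16719, 13683 and 12280 against 9255, 6559 and 8311. Every tamoxifen library lay below every untreated one. The log2 difference was -0.83 ± 0.18 (SE, n = 3 per group, limma adjusted p 0.247).

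Phgdh, the dehydrogenase that opens the pathway, stood at 2783, 2842 and 2704 against 2160, 1274 and 2083. The untreated values were tight and tamoxifen replicate 2 was far below the other two, so the log2 fold change of -0.63 was -0.39 without it. Psph, the phosphatase of the last step, went from 2705, 2521 and 3190 to 2257, 1508 and 1801, a log2 difference of -0.61 (limma adjusted p 0.401). Thus all 3 enzymes from the glycolytic intermediate to serine had groups that did not overlap.

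Of the mitochondrial one-carbon enzymes, Mthfd2 had values of 6073, 5343 and 5448 against 4476, 3074 and 4253. The groups were separate, with a log2 fold change of -0.53 and -0.91 on reads (limma adjusted p 0.434 and 0.210). Shmt2, which splits serine to glycine, overlapped between groups on deposited values, at -0.13, and stood at -0.64 on reads, where the groups were separate.

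In proline synthesis, Aldh18a1 stood at 4311, 4516 and 5410 against 4165, 2744 and 4049. Its groups were separated by a narrow gap (log2 fold change -0.40, and -0.20 without tamoxifen replicate 2). Pycr1 overlapped on deposited values (-0.55, and -0.30 without tamoxifen replicate 2) and was separate on reads (-1.10). Asns, the asparagine synthetase, had a log2 fold change of -0.62 that ranged from -0.87 to -0.24 with 1 library left out, smallest without tamoxifen replicate 2, and its deposited values overlapped.

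Amino acid transporters were mixed. Slc3a2, the heavy chain shared by several transporters, had values of 12553, 12554 and 14790 against 11249, 8095 and 12281. The groups were just separate, and the log2 fold change was -0.35 (limma adjusted p 0.608), or -0.17 without tamoxifen replicate 2. Slc7a11, the cystine importer, stood at -0.86 with an interval from -2.44 to 0.72, on 8 to 40 reads, and at -0.33 without tamoxifen replicate 2. Slc7a1, the arginine and lysine importer, stood at 0.18. Slc7a5, a leucine transporter that pairs with Slc3a2, was the member not tested. It was listed at 0.885 in untreated replicate 2 and 18.6 in tamoxifen replicate 2, on 1 read each, and at 0 elsewhere, so no difference could be read. Its partner Slc3a2 had 377 to 1461 reads in the same libraries. Why Slc7a5 had so few was not tested, and the annotation and counting rule are not given in the sources used here.

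The tRNA ligases load amino acids onto tRNA. Counted with the tRNA exporter Xpot, 6 of 7 lay below 0, with a median log2 fold change of -0.50 that was -0.28 without untreated replicate 1. Sars (ENSMUSG00000068739, chromosome 3, 108424865 to 108445209), the seryl-tRNA synthetase, had values of 11259, 14062 and 15637 against 7454, 6364 and 8797. All tamoxifen values lay below all untreated values. The log2 difference was -0.86 ± 0.18 (SE, n = 3 per group, limma adjusted p 0.224), and -0.88 on reads.

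Aars, for alanine, stood at 18685, 23599 and 25184 against 18684, 12281 and 16038. Untreated replicate 1 (18684.6) and tamoxifen replicate 1 (18684.2) were all but tied. Their gap has the size of the k / (k + 0.1) term in the deposited values (see the processing account), so it shows no separation. The log2 fold change was -0.53, and on reads the groups were separate. Mars, for methionine, had values of 14421, 13683 and 18682 against 11249, 10801 and 10646, a log2 difference of -0.50 (limma adjusted p 0.388). Its groups were separate on deposited values and overlapped on reads.

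Nars, for asparagine, had values of 20592, 11756 and 9711 against 9420, 7571 and 9595. The untreated spread was wide and replicate 1 stood far above the others, so the log2 fold change of -0.59 was -0.28 without it. Gars (-0.47) and Xpot (-0.29) overlapped between groups and stood at -0.27 and -0.12 without untreated replicate 1, as did Wars at 0.01 with an interval from -0.29 to 0.31.

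The regulators come before their targets in the pathway. The 7 transcription factors had a median log2 fold change of -0.17 on deposited values and -0.49 on reads scaled by the median of ratios. On deposited values 0 had an unadjusted limma p under 0.05, where 3.99% of all genes were lower and 5.34% higher. On those reads 1, Atf4, was lower by that rule, where 3.12% of all genes were lower and 4.83% higher. Without untreated replicate 1 the regulators' median on deposited values was 0.012, so the direction of that median rested on that library. Whether regulators and targets differ was not tested. Atf4 (ENSMUSG00000042406) was listed at 29387, 11250 and 11248 untreated and at 14050, 14059 and 12913 after tamoxifen. Untreated replicate 1 was more than any other library, and the remaining 2 untreated values lay below all tamoxifen values. The log2 fold change of -0.18 became 0.28 without untreated replicate 1. On reads the picture differed: 1107, 1367 and 388 against 501, 396 and 994 raw reads gave -0.68 after scaling by the median of ratios, and the scaled groups were separate. Scaled to the library total, the reads gave -0.41 (unadjusted limma p 0.296), or -0.66 relative to the median of all genes.

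Ddit3 (CHOP), a factor linked to cell death under stress, had values of 1049, 1352 and 1807 against 1166, 892 and 1118, on 19 to 87 reads. The groups overlapped and the log2 fold change was -0.38, which ranged from -0.57 without untreated replicate 1 to -0.18 without untreated replicate 3. Atf5, a relative of ATF4, had values of 1963, 1789 and 2135 against 1738, 1277 and 1750. Its groups were just separate (-0.32, and -0.17 without tamoxifen replicate 2) on deposited values and overlapped on reads. Cebpb (-0.11), Cebpg (-0.15), Nupr1 (-0.17) and Atf3 (0.17), a stress factor also induced by p53, all overlapped between groups.

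The 10 ER unfolded protein genes had log2 fold changes from -0.50 to 0.32, and 9 overlapped between groups. That is near the share of all genes tested, of which 7.33% were separate downwards and 7.92% upwards. The remaining ER gene was Herpud1, which serves ER-associated degradation. It was also the 1 ER gene of 9 with a promoter whose window held TGATGNAA, and a link between the match and its values was not tested. Its values were 1635, 1547 and 1905 against 1245, 924 and 1469. The groups were separate by a small margin, at -0.50 on the log2 scale (95% interval -0.98 to -0.03, limma adjusted p 0.526). Without tamoxifen replicate 2 it stood at -0.32 and had an unadjusted limma p of 0.091.

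The sensor Atf6 had values of 1684, 1655 and 1469 against 1479, 1392 and 1353. The groups overlapped slightly, and the log2 fold change of -0.18 changed sign on reads (0.05). Xbp1, the transcription factor activated by IRE1 splicing, had values of 4028, 3542 and 3325 against 3521, 3570 and 3221. The groups overlapped, at -0.08 on the log2 scale (95% interval -0.35 to 0.19). Spliced and unspliced Xbp1 cannot be separated in values per gene.

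Chaperone genes overlapped between groups on deposited values. Pdia4 stood at -0.01 (interval -0.22 to 0.21, groups separate on reads at -0.20), Sdf2l1 at 0.00 (-0.33 to 0.33) and Hspa5, the gene of BiP, at -0.04 (-0.46 to 0.38). Calr, at 0.13, had an interval from -0.23 to 0.48. Hsp90b1, the gene of GRP94, stood at 0.28 with an interval from -0.71 to 1.27. Its untreated replicate 1 was far above the other 2. Without it the value was 0.78, with an unadjusted limma p under 0.05, and without untreated replicate 2 it was 0.0086. Dnajb9, a target of XBP1, stood at 0.08. Edem1, a mannosidase-like degradation factor, was the highest member at 0.32 with an interval from -0.05 to 0.69.

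For each role, the median over its members of log2(value + 1) minus each gene's mean over the 6 libraries was taken, leaving out Fgf21. Feedback and effector genes stood at 0.41, 0.32 and 0.29 in the untreated libraries and at -0.16, -0.48 and -0.20 in the tamoxifen libraries. The tRNA group stood at 0.16, 0.12 and 0.16 against -0.13, -0.52 and -0.19. Synthesis genes stood at 0.35, 0.15 and 0.22 against -0.02, -0.65 and -0.12, so the groups were separate in these 3 roles. Transport genes stood at 0.10, 0.10 and 0.14 against 0.00, -0.54 and 0.07, separate by a small margin. Regulators overlapped between groups, at 0.44, -0.12 and -0.07 against -0.03, -0.10 and -0.10. ER genes stayed between -0.06 and 0.06 in every library.

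Tamoxifen replicate 2 was the lowest library for 22 of the 43 tested members and untreated replicate 1 the highest for 20. Tamoxifen replicate 2 had the fewest recovered reads in total, 2334438. Untreated replicate 3 had the fewest genes with at least 10 reads, 10126 against 11147 in tamoxifen replicate 2. Without tamoxifen replicate 2 the median of the 33 tested members outside the ER group was -0.30 in place of -0.47. In that fit 11 members were lower at an unadjusted limma p under 0.05, and Edem1 was higher by that rule. Without untreated replicate 1 that median was -0.39 and 10 members were lower by the same rule, while Atf4 and Hsp90b1 were higher. Over all genes, 1311 of 17329 passed that rule in either direction without tamoxifen replicate 2. Without untreated replicate 1 it was 2022 of 17302.

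**Figure D4:**
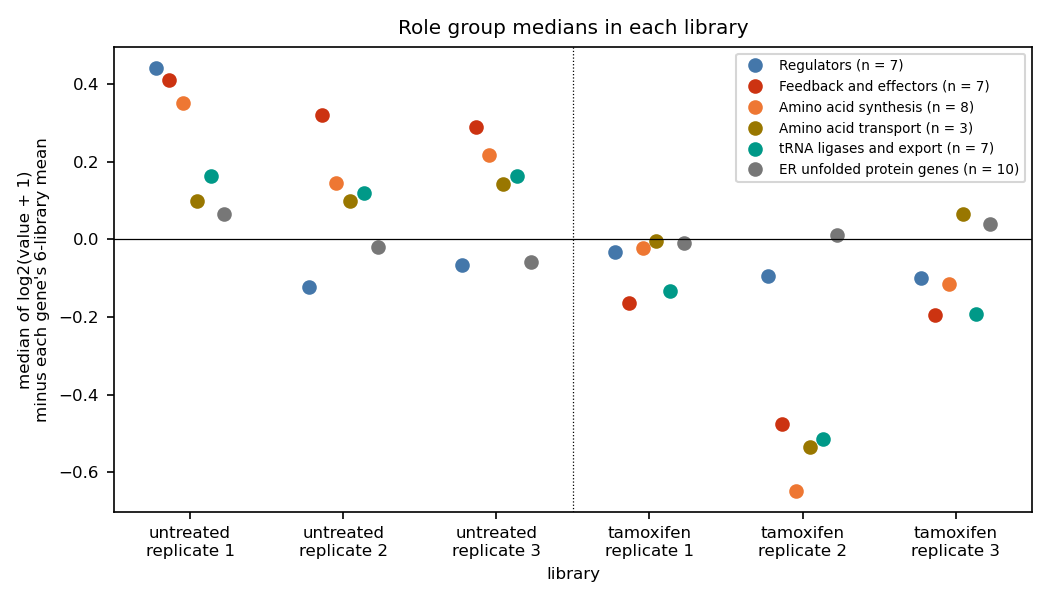
Median over the members of each role (points, colour by role) of log2(value + 1) minus each gene's mean over 6 libraries (y axis), for every library (x axis). Feedback, synthesis and tRNA groups are above 0 in all untreated and below 0 in all tamoxifen libraries, lowest in tamoxifen replicate 2, while ER genes stay near 0.

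Other genes of the same pathways, taken from lists written with earlier results of these data known, were set beside the members. Of 26 further ATF4-linked targets, 7 were lower at an unadjusted limma p under 0.05 and 0 higher, with a median log2 fold change of -0.23. By that rule 3.99% of all tested genes were lower and 5.34% higher. Mthfd1l, a mitochondrial folate enzyme, stood at -0.59, Gpt2, the mitochondrial alanine aminotransferase, at -1.03, and Pck2, the mitochondrial PEP carboxykinase, at -0.74. For all 3, which were named for their small p, the groups were separate. Of the 26, 19 lay below 0 and 7 above. Groups were separate downwards for 8 and upwards for 0, against 7.33% and 7.92% of all genes tested. All 14 further cytosolic tRNA ligases lay below 0, with a median of -0.38, and 5 were lower at an unadjusted p under 0.05, among them Iars (-0.42) and Eprs (-0.77). Lars, for leucine, had values of 18062, 18062 and 13681 against 8564, 7571 and 8564 (limma adjusted p 0.0936). Over all genes tested, none of these 40 was called after adjustment. Near-equal deposited values recur in different genes and libraries, such as 12553 for Slc3a2 in untreated replicate 1 and for Hsp90b1 in tamoxifen replicate 1. Ties such as those in Lars and Slc3a2 are therefore no measure of close replicates.

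Upstream machinery and the wider ER system were counted in the same way. Of 21 tested stress sensors, eIF2 subunits and eIF2B subunits, 1 was lower and 1 higher at an unadjusted limma p under 0.05, with a median of 0.02. These counts are near the shares of all tested genes, 3.99% lower and 5.34% higher. The lower one was Eif2b3 (-0.72), a subunit of the exchange factor of eIF2, and the higher one Creb3l2 (1.93), an ER-bound transcription factor that aids secretion. Of 29 further ER chaperone and degradation genes, 4 were higher and 0 lower, with a median of 0.15 that was 0.04 on reads. P4hb stood at 1.77 on deposited values and at -0.12 on reads, Dnajb11 at 0.40 and 0.27, and Pdia5 at 0.72 and 0.60.

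The libraries as a whole set limits on these values. Recovered reads came to between 2334438 and 5689666 per library, and 20.2% to 36.7% of them fell on the 10 most abundant genes. Ezh2 itself was 3756 ± 361 untreated and 2475 ± 190 after tamoxifen (SD, n = 3), with limma adjusted p 0.195, and it was present in every library. Summed values of 12 stem cell markers were 81347 to 113678 untreated and 92771 to 95097 after tamoxifen, with Pou5f1 on 564 to 2338 reads. Log2 fold changes of the 12 ran from -0.54 to 0.70, with 7 below 0 and 5 above. At an unadjusted limma p under 0.05, 1 was lower and 2 higher, against 3.99% and 5.34% of all tested genes. Of 16 primitive endoderm markers, 12 were higher at an unadjusted limma p under 0.05, against 5.34% of all tested genes. Their summed values were 22956 to 28403 untreated and 48691 to 57103 after tamoxifen. Those of 10 trophoblast markers were 6370 to 7677 and 11304 to 13217, with Cdx2 and Elf5 at 3 reads or fewer in every library. Those of 12 fibroblast markers were 1826 to 2334 and 2130 to 2466, with Postn at 0 reads in the untreated libraries. The part of these other cell types in the differences above was not tested. Exons of 7 members overlap another gene of the table on the opposite strand, Ddit3 with Mars, Psph with Cct6a and Shmt2 with Ndufa4l2 among them. Whether the counts used strand is not stated, so these values are uncertain.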

How the data were processed

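Ribosomal RNA was depleted and directional libraries were made, per the labels' protocols. The authors deposited a normalized signal per Ensembl gene, and the submitters' processing notes name TopHat2, bedtools, DESeq2 and the build mm9. Annotation and counting rule are not given in the sources used here. Each value above 0 equals a constant × k × (m + 0.1) / (k + 0.1) with whole k and m (largest relative misfit 5.11e-15). The number k was taken as the reads. A single k fitted 98.8% of 100305 values. For 1166 values several did, and the choice used the same gene in other libraries (1060) or, failing that, the m closest to k (106). Tests used limma 3.58.1 in R 4.3.3 with an expression trend on log2(value + 1), kept genes averaging 10 or more, and used Benjamini-Hochberg adjustment over all genes tested. Reads were scaled by the median of ratios, with 0.5 added. An exact permutation test of 3 against 3 libraries cannot go below 0.1. Symbols and coordinates came from GENCODE vM21 (GRCm38). Scripts were tested on simulated data. The members, lists and tests were chosen with earlier results of these data known. Values in every library are printed for members whose groups do not overlap, whose unadjusted p is under 0.05, and for Atf4, Ddit3, Atf6 and Xbp1. Of other lists, up to 3 genes of smallest p are named, with further markers chosen after their values were seen. Replicate numbers were not used to pair the libraries in the main fit. Python 3.11.15 with numpy 2.4.6, pandas 2.3.3, scipy 1.17.1 and matplotlib 3.10.9 was used.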

Additional observations from a re-analysis of the deposited data

How the results depend on the processing

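Alternatives covered the pseudocount, filters, scaling, recovered reads, the variance prior, the replicate number and each library left out. Among 22 members printed in full, 319 of 329 refits kept direction and side of the threshold. That count is no measure of robustness. Only Fgf21 was called in the main fit, so for the other members keeping the side means staying uncalled. The filters, the variance prior and the replicate block also leave a member's log2 fold change as it was. Fgf21 lost its call in 5 and a sign changed in 5: Atf4 at 0.28 without untreated replicate 1 (-0.41 to 0.28 over the libraries left out), Xbp1 at 0.00080 without that library (-0.14 to 0.00080) and 0.079 on reads scaled to the library total, and Atf6 at 0.046 on reads by median of ratios and 0.32 on reads scaled to the library total. Genes called numbered 34, against 15 with at least 10 reads on average, 52 without a filter, 52 with a pseudocount of 10, 5 on reads by median of ratios, 6 on reads scaled to the library total and 32 to 56 with 1 library left out. With a replicate block limma called 0 genes (1393 at an unadjusted p under 0.05) and 0 members (14 lower at an unadjusted p under 0.05). Same-numbered libraries deviated with correlations of -0.04 to 0.00. These correlations cannot show whether such libraries shared a culture or batch. Members called were 0 in place of 1 with at least 10 reads on average and in both read fits, and 0 to 1 with 1 library left out. Members lower at an unadjusted p under 0.05 were 14, 22 on reads by median of ratios, 2 on reads scaled to the library total and 10 to 14 with 1 library left out, where 0 to 2 were higher. All genes with an unadjusted limma p under 0.05 in either direction numbered 1627, 1384, 1206 and 1109 to 2022 in these fits. They were counted among 17427 genes, or 17300 to 17383 with 1 library left out. On reads scaled to the library total the median of all genes was 0.25, so the members' median of -0.32 was -0.57 relative to it, the tRNA group stood at -0.32 and the ER group at 0.22, or -0.03 relative to all genes. On reads by median of ratios the members stood at -0.59, regulators at -0.49 and feedback genes at -1.03. Without a filter the transport median was -0.089, since Slc7a5 then entered. With 1 library left out, medians ranged from -0.42 to -0.20 for all members, -0.96 to -0.61 for feedback genes, -0.76 to -0.33 for synthesis genes, -0.47 to -0.17 for transport genes, -0.56 to -0.28 for the tRNA group, -0.02 to 0.04 for ER genes and -0.27 to 0.012 for regulators. The cause of these changes was not tested. Members under about 40 reads, such as Vldlr, Stc2, Slc7a11 and Atf3, are limited by depth.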

Other observations

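Stress programmes beside the ATF4 and ER branches were counted in the same way. Of 10 genes of the NRF2 antioxidant response, 8 lay above 0 with a median log2 fold change of 0.19, which was 0.04 on reads. Srxn1, the gene of sulfiredoxin, was higher at an unadjusted limma p under 0.05, at 2548, 2598 and 2594 against 4047, 3413 and 3298 (log2 fold change 0.47, limma adjusted p 0.298). By that rule 5.34% of all tested genes were higher. All 11 tested genes of the cytosolic heat shock response overlapped between groups, with a median of -0.06. Of all genes tested, 7.33% were separate downwards and 7.92% upwards.

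The mitochondrial tRNA ligases, mostly encoded by separate genes from the cytosolic ones, had a median of -0.17 over 17 genes, of which 15 were below 0. Lower at an unadjusted limma p under 0.05 was 1, Hars2 (-0.29), near the share of 3.99% over all tested genes. For none of these lists was a difference from the members tested.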
